A study of Homo sapiens with 20 samples.

Results

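The 10 genes described here encode 7 classical SR proteins (SRSF1 to SRSF7), the SR-related protein SRSF11 and both human Transformer-2 proteins (TRA2A and TRA2B). They were set by gene identifier and not by a cut on measured values, though with earlier results of these data known. They make up 10 of the 19962 genes of the deposited count table. In GRCh38 the genes are SRSF1 (ENSG00000136450, chr17:57989038-58007246, minus strand), SRSF2 (ENSG00000161547, chr17:76734115-76737411, minus), SRSF3 (ENSG00000112081, chr6:36594362-36605600, plus), SRSF4 (ENSG00000116350, chr1:29147743-29181900, minus) and SRSF5 (ENSG00000100650, chr14:69767142-69772005, plus). The others are SRSF6 (ENSG00000124193, chr20:43457896-43464243, plus), SRSF7 (ENSG00000115875, chr2:38743599-38751494, minus), SRSF11 (ENSG00000116754, chr1:70205696-70253052, plus), TRA2A (ENSG00000164548, chr7:23504780-23531981, minus) and TRA2B (ENSG00000136527, chr3:185914558-185938014, minus). Their RNA was followed in PAR-CLIP libraries of IGF2BP3, an RNA-binding protein, from HCT116 cells, a human colorectal carcinoma line that here carried a tetracycline-controlled OsTIR1 gene. In PAR-CLIP, cells take up the photoreactive nucleoside 4sU, light crosslinks labelled RNA to protein, and the protein is immunoprecipitated with its bound fragments. A crosslinked uridine is read as a T-to-C conversion. 4sU was given to all cells at 100 µM for 15 h, and crosslinking used light of 365 nm at 0.15 J/cm2. The 5 conditions were PBS for 2 h, arsenite at 250 µM for 2 h, DMSO for 4 h, and tunicamycin (TM) at 5 µg/mL for 1 h or 4 h. The titles say arsenite, whereas the treatment text names sodium arsenate. PBS is the vehicle of arsenite and DMSO that of TM, so the 1 h TM samples have a vehicle of 4 h. Each condition has 3 anti-IGF2BP3 libraries and 1 control IgG library. The labels do not say whether replicates were separate cultures, so p-values measure only the spread between these libraries, which may be technical. The protocol gives alternative RNase amounts without tying them to samples.

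SR proteins have RNA recognition motifs and a domain rich in arginine and serine, and bind exonic sequences to promote the recognition of splice sites. TRA2 proteins have a similar build and act as splicing activators on purine-rich exonic enhancers. Genes of both families are known for poison exons: alternative exons with an early stop codon that direct the transcript to nonsense-mediated decay and let the proteins limit their own amount. IGF2BP3 binds many mRNAs and is known for effects on their stability, translation and localisation. Arsenite causes oxidative stress, and TM blocks N-linked glycosylation and causes stress of the endoplasmic reticulum. More RNA of a gene in an IGF2BP3 library can reflect more transcript or more binding; these cannot be told apart here, and libraries of total RNA were not analysed here.

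Clusters, the stretches of overlapping converted reads that the authors called in each library, were found in 9 of the 10 genes, with 914 member clusters in the 15 anti-IGF2BP3 libraries. None lay on the strand opposite to a member. Merged over libraries they formed 93 regions. SRSF5 held no cluster in any library. Most genes had 1 dominant region: it took 95.6% of all TRA2B cluster reads, 97.1% of those of SRSF2, 74.4% of those of SRSF1 and 72.2% of those of SRSF6. The largest region took 66.0% in SRSF4, 58.6% in TRA2A, 55.3% in SRSF11 and 48.8% in SRSF7. The lowest share was that of SRSF3, whose largest region took 33.9%. The sequences below are windows of 30 bases at the mode position of the cluster with the most reads, taken from the regions that the results turn on. They are written 5′ to 3′ on the transcript strand as deposited, and capitals mark CAT and ACA, trinucleotides with the CA pair that IGF2BP proteins are known to prefer.
SRSF3 upstream region, chr6:36600126-36600155, plus strand: taACAaaaaagcaggaaaaatccACAACAc
SRSF3 downstream region, chr6:36602822-36602851, plus strand: gagcttggtaccaagtccaggtataACATt
TRA2B main region, chr3:185917343-185917372, minus strand: atgctaccaaatggcaaaaagcaACAataa
SRSF1 main region, chr17:58004881-58004910, minus strand: gtgctattgtcACAgatgaaattggcagta
SRSF6 main region, chr20:43460968-43460997, plus strand: tctgtgtcccctccaccaaaaagagctact
The SRSF3 upstream window has 3 ACA and 2 T, and the TRA2B window has 1 ACA and 4 T. The SRSF3 upstream window is from an arsenite library and that of TRA2B from a TM 4 h library. Each window is a small part of its region, and its base content was not compared with that of other regions. The SRSF6 window has neither trinucleotide. Over the 90 member regions with a cluster of at least 30 bases, 38.9% of windows held CAT and 36.7% ACA, against 49.0% and 44.5% of the 68011 windows of all regions. GGAC was in 2 of the 90 windows (2.22%, against 7.69% of all), and GAAGAA, a purine-rich enhancer motif of TRA2 and SRSF1, in 0 (against 0.832%). Motifs were searched on the transcript strand only, since the reads are RNA, and an ACAT holds both trinucleotides. Coordinates are those of the deposited GRCh38 files. Exon annotation was not used here, so no region is assigned to an exon, intron or UTR.

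The anti-IGF2BP3 libraries held 130478 to 1568406 gene counts, with PBS replicate 2 the smallest, and the IgG libraries 5981 to 17503. The 10 genes took 0.206% to 0.268% of the counts in anti-IGF2BP3 libraries and 0.200% to 0.329% in IgG libraries. Every IgG library held 10 counts or fewer of each gene and no member cluster. With TMM scaling, which scales libraries through the bulk of genes, the 9 members tested had log2 differences of 0.21 to 1.43 between anti-IGF2BP3 and IgG libraries. None was called (edgeR's quasi-likelihood test, lowest adjusted p = 0.081, against 9.26% of all genes called). The median was 0.51 over these members and 0.71 over all 7592 genes tested, so positive values alone show no enrichment. With library totals 7 of these 9 differences turned negative, so no enrichment of these genes over IgG was detectable by gene counts at this depth. All 5 epithelial markers looked up held clusters, and none of 6 markers of blood, fibroblasts, endothelium and liver did. FOS, an arsenite-induced gene, had 0 cluster reads in each PBS library and 655, 1102 and 1716 in the arsenite libraries. DDIT3, a gene of the unfolded protein response, had 0 in all DMSO and TM 1 h libraries and 37, 112 and 177 at TM 4 h. Of the other genes looked up for TM, HERPUD1 had 0, 12 and 7 reads in DMSO and 110, 401 and 497 at TM 4 h. HSPA5 had 58, 148 and 236 against 364, 989 and 1325. HERPUD1 was also higher in arsenite, with 96, 134 and 265 reads against 6, 0 and 0 in PBS. Of the others for arsenite, HMOX1 had 0 reads in each PBS library and 9, 33 and 62 in arsenite, and HSPA1A held no cluster.

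In arsenite, more TRA2B and SRSF3 RNA was recovered with IGF2BP3 than in PBS, and less SRSF1 RNA. TRA2B, which codes for a splicing activator, stood at 371, 405 and 369 CPM (gene counts scaled to a common library size) in the PBS libraries and at 619, 569 and 604 in the arsenite libraries. All arsenite values lay above all PBS values, and above all values of the TM series, which comes from other library sets. The mean rose from 382 ± 20.4 to 597 ± 25.5 CPM (SD, n = 3 each), or by 0.67 on the log2 scale (SE 0.10, adjusted p = 7.3e-09 in edgeR). SE of an edgeR value is derived here from the test, as the absolute log2 fold change over the square root of its F statistic. SRSF3, the smallest classical SR protein, stood at 249, 326 and 227 CPM in PBS and at 376, 340 and 352 CPM in arsenite. The groups did not overlap, although PBS replicate 2, the shallowest library, came close to the lowest arsenite library. On the log2 scale SRSF3 rose by 0.50 (SE 0.12; adjusted p = 0.00047 in edgeR). Both calls held under the 11 alternatives run for this comparison. SRSF1, the founding member of the family, went from 310, 326 and 257 CPM in PBS to 208, 241 and 230 in arsenite. Here too the groups were separate, and the fall was 0.34 on the log2 scale (SE 0.13, edgeR adjusted p = 0.025). This call was lost under 5 of 11 alternatives: DESeq2 (adjusted p = 0.13), no filter on low counts (0.14), and leaving out PBS replicate 1 (0.22), arsenite replicate 1 (0.084) or arsenite replicate 3 (0.073).

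**Figure D1:**
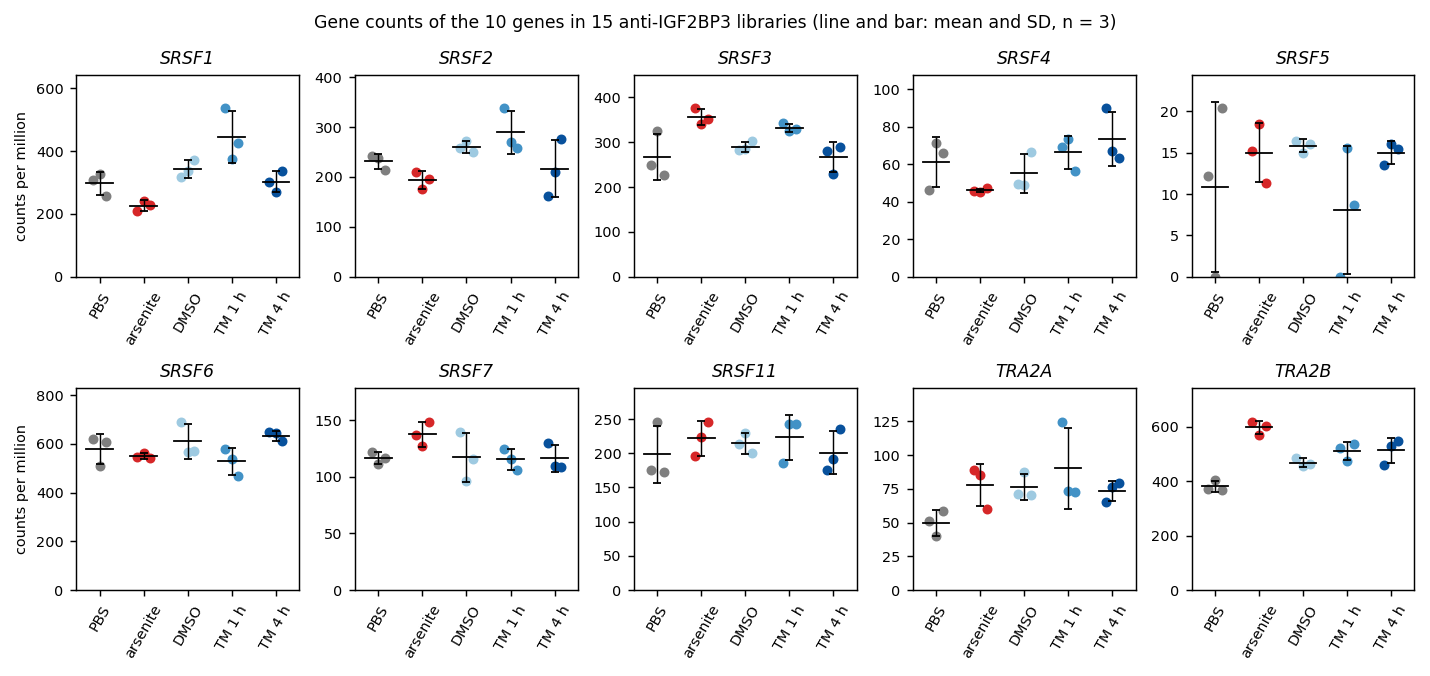
CPM of the 10 genes (1 panel a gene, vertical axis from 0 in each) in the 15 anti-IGF2BP3 libraries, by condition. Points are libraries, and the line and bar give mean and SD of 3 libraries. In the TRA2B panel the arsenite points, 569 to 619, stand above the points of the other 4 conditions.

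The other 6 members tested in arsenite were not called. TRA2A, the paralog of TRA2B, had 51.2, 39.7 and 58.6 CPM in PBS and 88.8, 85.4 and 60.4 in arsenite, with a log2 fold change of 0.50 as for SRSF3 but a wider error (SE 0.26, adjusted p = 0.12). Leaving out arsenite replicate 3, its lowest arsenite library, gave 0.73 and an adjusted p of 0.042. SRSF11 had a log2 fold change of 0.30 (SE 0.14, adjusted p = 0.090), which passed the threshold without PBS replicate 2 (adjusted p = 0.031) or without arsenite replicate 1 (0.047). SRSF7 stood at 111 to 122 CPM in PBS and 127 to 149 in arsenite (log2 0.24, adjusted p = 0.30), and SRSF2 at 214 to 241 and 176 to 211 (log2 -0.25, adjusted p = 0.15). SRSF4 (log2 -0.33) and SRSF6 (log2 -0.12) had adjusted p-values of 0.36 and 0.32. SRSF5 did not pass the filter on low counts in this comparison, with 0 to 8 counts in the PBS libraries. So 3 of 9 members tested were called, 2 higher and 1 lower, and arsenite called 34.8% of all 6642 genes tested, so the count of called members is near the background. The median log2 fold change was 0.24 over the 9 members and 0.00 over all genes. Without overlap, 4 of 9 members were higher (22.7% of all genes) and 2 lower (21.0%).

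**Figure D2:**
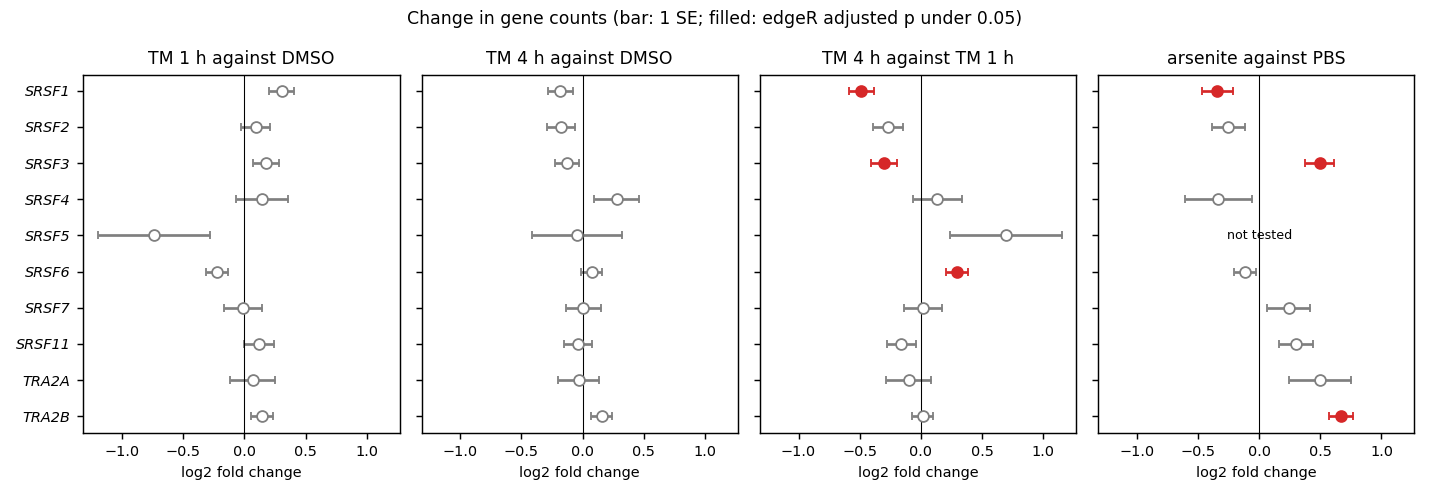
Log2 fold change of gene counts of the 10 genes in 4 comparisons, with bars of 1 SE, from edgeR; filled red points have an adjusted p under 0.05. No point is filled in the 2 comparisons of TM with DMSO, and SRSF5 was not tested in arsenite against PBS.

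The arsenite gain in SRSF3 cluster reads was seen in 1 stretch of the gene. This upstream region, chr6:36599815-36600267 on the plus strand, runs from 5453 to 5905 nt after the annotated gene start, whereas the remaining 6 SRSF3 regions lie from 7629 nt on. Its cluster reads were 7, 0 and 5 in the PBS libraries and 76, 93 and 187 in the arsenite libraries. The DMSO libraries had 8, 24 and 45 reads, those of TM 1 h 0, 0 and 21, and those of TM 4 h 23, 49 and 92. Arsenite replicate 1 and PBS replicates 1 and 3 have near-equal depth, at 414033, 423906 and 403352 gene counts. In these 3 libraries the upstream region had 76, 7 and 5 reads, and all other SRSF3 regions together had 33, 42 and 59. Clusters were called in each library on its own, so a region below the caller's minimum is listed with no read.

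Expressed as a share of SRSF3 cluster reads, which does not depend on the scaling between libraries, the arsenite and TM 4 h libraries stood apart from the rest. The share still depends on depth, since a weak region can fall below the caller's minimum in a shallow library. The upstream region took 14.3% and 7.81% in the PBS libraries with SRSF3 clusters (PBS replicate 2 had none) and 69.7%, 64.1% and 61.5% in arsenite. It took 13.3%, 10.5% and 14.0% in DMSO, 0%, 0% and 7.29% at TM 1 h, and 37.7%, 35.3% and 22.5% at TM 4 h. Thus every arsenite library lay above every other library, and every TM 4 h library lay above every DMSO, TM 1 h and PBS library. Means with SD (n = 3 each) were 65.1 ± 4.19% for arsenite, 31.8 ± 8.14% for TM 4 h and 12.6 ± 1.83% for DMSO. This share was computed after the region's reads had been seen, and it is given with no test. Since shares of 1 gene sum to a fixed total, those of other regions had to be lower where this one was higher. The region at 8092 to 8529 nt took 18.3 ± 1.55% in arsenite, 28.1 ± 2.86% at TM 4 h and 43.5 ± 3.81% in DMSO, and its own reads were not called lower in arsenite.

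**Figure D3:**
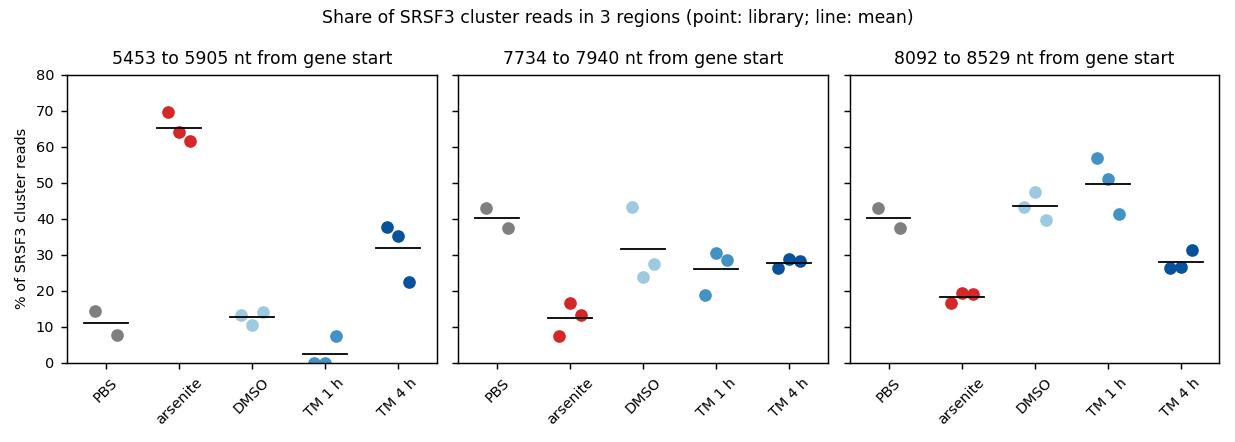
Percent of all SRSF3 cluster reads that fell in each of 3 regions, by condition; points are libraries and lines are means. The left panel, the upstream region, shows arsenite libraries at 61.5% to 69.7% and TM 4 h libraries at 22.5% to 37.7%, above all vehicle libraries; PBS has 2 points because replicate 2 had no SRSF3 cluster.

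In a fit of all cluster regions, added after the data had been seen, 11 of the 93 member regions passed the filter on low counts for arsenite against PBS. An adjusted p under 0.05 was reached by 2 of them, in SRSF3 and TRA2B, and by 12.7% of all 4358 regions. The median region had a log2 fold change of 0.25, and this reference was itself unsteady: it was 0.079 with library totals, 0.43 with median-ratio factors, 2.97 with no filter, and 0.13 to 0.59 with 1 library left out. The SRSF3 upstream region rose by 3.88 on the log2 scale (SE 0.45; adjusted p = 0.0034 in edgeR). With under 10 reads in each PBS library, it entered the fit through its arsenite libraries alone. A region that enters in this way had to differ, so the reads above are a description and the p-value adds no support. The adjusted p did not stay under 0.05 on leaving out any 1 arsenite library (adjusted p = 0.097, 0.081 and 0.059), although the log2 fold change stayed between 3.89 and 4.09; without them the whole fit called only 10, 25 and 50 regions. The SRSF3 regions at 7734 to 7940 nt (log2 -0.22, SE 0.82) and at 8092 to 8529 nt (log2 0.33, SE 0.73) were not called (adjusted p = 0.93 and 0.86).

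**Figure D4:**
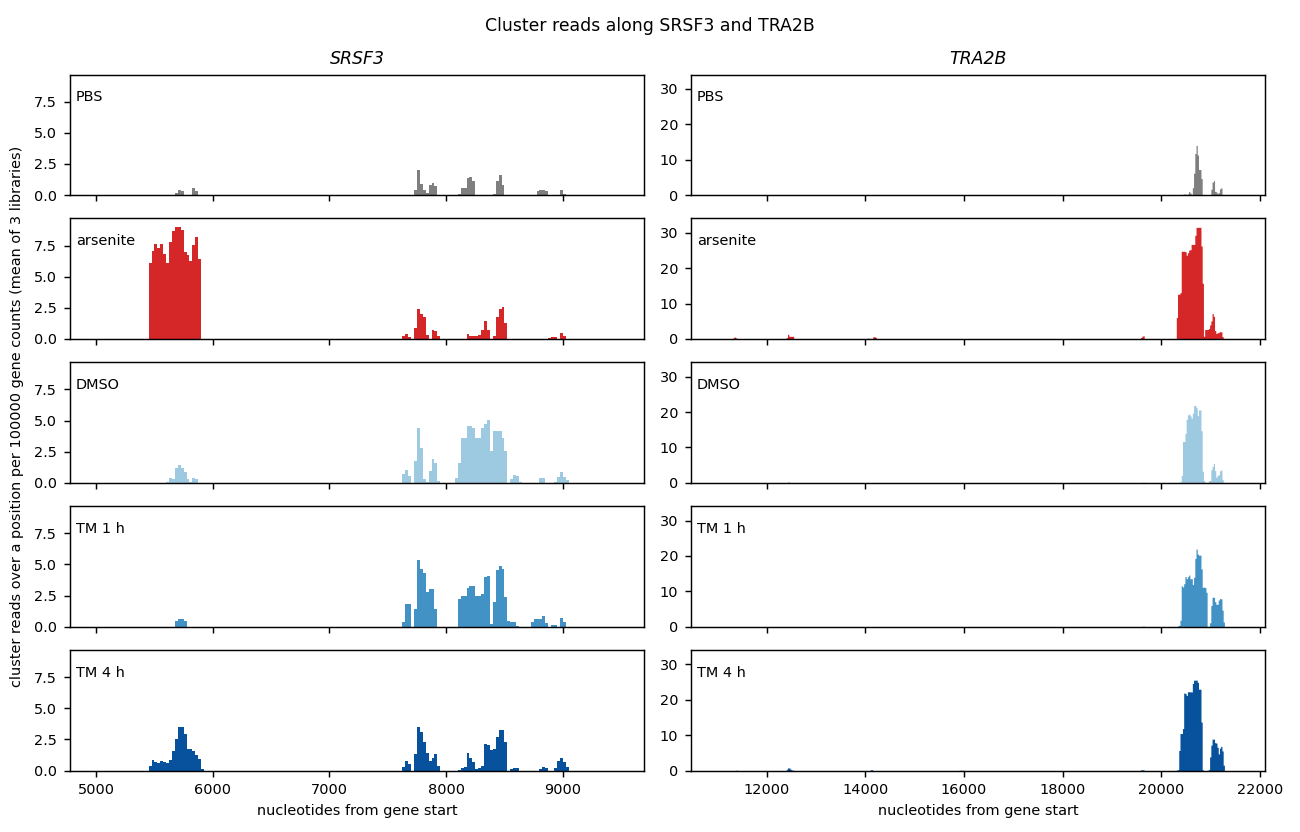
Cluster reads over each position of SRSF3 (left) and TRA2B (right), in bins of 25 nt from the annotated gene start, per 100000 gene counts, as the mean of the 3 libraries of each condition; a cluster's reads count at each position it spans, and the panels of a gene share 1 axis. On SRSF3 the block from 5453 nt is highest in arsenite, and on TRA2B most reads lie between 20309 and 21257 nt in each condition. The TRA2B block is wider in arsenite, DMSO, TM 1 h and TM 4 h than in PBS, and its width can depend on library depth.

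TRA2B gained reads in its main region, chr3:185916757-185917705 on the minus strand, 20309 to 21257 nt after the annotated gene start. It held 121, 24 and 125 reads in PBS and 202, 275 and 540 in arsenite, and took 100% of TRA2B cluster reads in each PBS library and 90.2% to 94.5% in arsenite. Its reads rose by 0.92 on the log2 scale (SE 0.16; adjusted p = 0.014 in edgeR). The call was lost without PBS replicate 3 (adjusted p = 0.053) and without arsenite replicate 1, 2 or 3 (0.097, 0.12 and 0.099). The other TRA2B arsenite reads came from small upstream regions with no cluster in PBS, such as 12407 to 12552 nt, with 7, 0 and 24 reads in arsenite, 5, 0 and 21 at TM 4 h and 0, 5 and 8 in DMSO. Similar small stretches lay in SRSF11 at 26576 to 26680 nt (0, 11 and 19 arsenite reads) and in SRSF6 at 2806 to 2857 nt (0, 10 and 13), again with 0 in every PBS library. These counts are too low for a comparison at this depth, as a cluster of a few reads is called more readily in a deeper library.

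**Figure D5:**
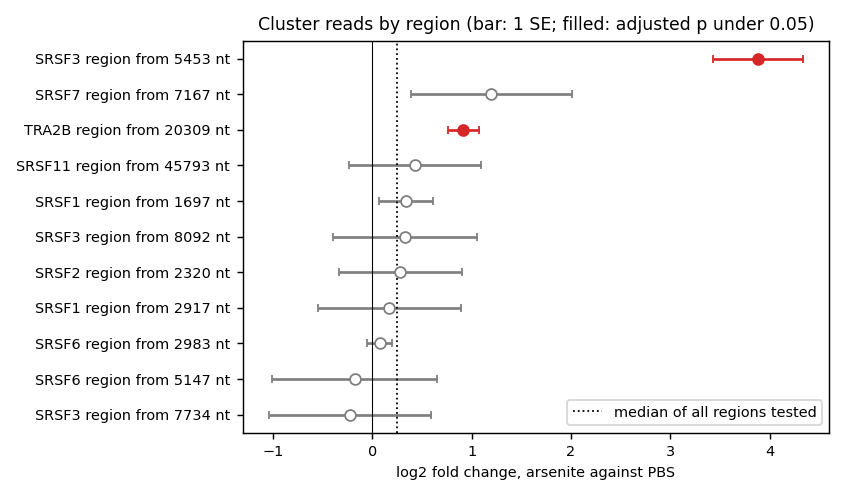
Log2 fold change of cluster reads, arsenite against PBS, for the 11 member regions that passed the filter on low counts, each named by gene and by its distance from the annotated gene start, with bars of 1 SE. The dotted line is the median of all 4358 regions, 0.25; the filled points, with an adjusted p under 0.05, are TRA2B at 0.92 and SRSF3 at 3.88, which passed the filter through its arsenite libraries alone.

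The main regions of SRSF1 and SRSF6 were not called. The SRSF1 region at 1697 to 2788 nt had 119, 12 and 103 reads in PBS and 105, 151 and 323 in arsenite (log2 0.34, SE 0.27, adjusted p = 0.52). Over all SRSF1 clusters the log2 difference was 0.11 (SE 0.31, adjusted p = 0.88), where the median gene had 0.31, so these reads were too variable to set beside the fall in SRSF1 gene counts. The SRSF6 region at 2983 to 3314 nt held a cluster in all 15 libraries, with 110, 207 and 359 reads in arsenite and a log2 difference from PBS of 0.08 (SE 0.13, adjusted p = 0.79). The smallest SE among the 11 regions was that of this SRSF6 region.

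Against DMSO, none of the 10 genes was called at TM 1 h or TM 4 h. At TM 1 h the background was low, with 0.551% of 8343 genes called, and the members' log2 fold changes ran from -0.74 (SRSF5) to 0.31 (SRSF1). SRSF1 stood at 318, 337 and 373 CPM in DMSO and 537, 375 and 425 at TM 1 h, and SRSF3 at 283, 284 and 303 against 342, 324 and 329. These 2 members were higher without overlap (7.62% of all genes) and 0 lower (7.70%), yet their edgeR adjusted p-values were 0.21 and 0.63. At an unadjusted p under 0.05, SRSF1 (0.0041) and SRSF6 (0.018) passed, as did 806 of the 8343 genes. At TM 4 h 5.11% of genes were called, and the members' log2 fold changes ran from -0.18 (SRSF1) to 0.28 (SRSF4). SRSF2, at -0.18 with all libraries, reached -0.44 (adjusted p = 0.044) without TM 4 h replicate 3. In each TM and DMSO group, replicate 3 is from another library set than replicates 1 and 2. No member had groups without overlap at TM 4 h (10.6% of all genes higher, 9.90% lower). Over the members, the 1 h median was 0.11 and the 4 h median -0.03, both against 0.00 for all genes. The 3 TM contrasts share libraries, so their values are set side by side only.

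Between TM 4 h and TM 1 h, 3 of 10 members were called, 1 higher and 2 lower, where 11.6% of all genes were. SRSF1 fell from 537, 375 and 425 CPM to 301, 270 and 338, a log2 change of -0.49 (SE 0.10; adjusted p = 0.00051 in edgeR), and this call held under all 13 alternatives. SRSF6, a classical SR protein with a role in exon inclusion, rose from 578, 537 and 468 CPM to 647, 644 and 610 (log2 0.30, SE 0.09, adjusted p = 0.022). SRSF3 fell from 342, 324 and 329 CPM to 281, 228 and 289 (log2 -0.30, SE 0.11, adjusted p = 0.047). The SRSF6 call was lost under 6 of 13 alternatives (log2 0.19 and adjusted p = 0.35 without TM 1 h replicate 3) and the SRSF3 call under 11 of 13 (adjusted p up to 0.24). SRSF2 joined them without TM 4 h replicate 3 (log2 -0.53, adjusted p = 0.0063). The same 3 genes were the ones whose groups did not overlap, 1 higher (14.1% of all genes) and 2 lower (12.8%).

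Within SRSF3, no region was called between TM 4 h and TM 1 h. The upstream region had a log2 difference of 2.69 (SE 0.82) and the region at 8092 to 8529 nt one of -0.96 (SE 0.28). Their unadjusted p-values were 0.0049 and 0.0036, and neither passed adjustment over 11180 regions (edgeR adjusted p = 0.30 and 0.25; 0.331% of regions called). Against DMSO at TM 4 h the upstream region had a log2 difference of 1.1 (SE 0.74, unadjusted p = 0.15; 0.0716% of regions called). The recovery of known changes was not measured for the TM region fits.

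The response to arsenite differed from that to TM 4 h for TRA2B and SRSF3. TRA2B had log2 values of 0.67 in arsenite and 0.16 at TM 4 h in their own fits. In a joint fit of both experiments the difference was 0.50 (SE 0.13), with an edgeR adjusted p of 0.0032. For SRSF3 the values were 0.50 and -0.13, and the difference was 0.61 (SE 0.16, adjusted p = 0.0036). Both were called under all 17 alternatives, and 2 of 9 members compares with 18.3% of 7796 genes. The 7 others had differences of -0.61 (SRSF4) to 0.52 (TRA2A), with adjusted p-values of 0.19 to 0.81. The SRSF3 upstream region had a log2 difference of 2.87 (SE 0.59, edgeR adjusted p = 0.014, where 1.80% of 8152 regions were called). This contrast reuses the region's PBS and arsenite reads, which had been seen before the fit was added, so its p-value adds no support. The call for this region was lost with no filter on low counts (log2 2.72, adjusted p = 0.29), without DMSO replicate 3 (adjusted p = 0.083) and without arsenite replicate 1 or 2 (0.052 each). The TRA2B main region had a difference of 0.93 (SE 0.25) and was not called (adjusted p = 0.064). On simulated counts this region test recovered 0.5% of 2-fold and 42.5% of 8-fold changes. The simulation left out the calling of clusters in each library, so these rates may not hold for the data. The arsenite and TM libraries come from different library sets, and the TM and DMSO libraries themselves from more than 1 set.

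The PBS and arsenite libraries come from another library set than the DMSO and TM libraries. Order across the experiments is thus a description and not a test of treatment. Ordered by mean CPM over the 5 conditions, TRA2B was highest in arsenite, followed by TM 4 h (513 ± 45.8), TM 1 h (512 ± 32.5), DMSO (468 ± 15.5) and PBS. The ranges of TM 4 h, TM 1 h and their neighbours DMSO overlapped, and PBS lay below all. For SRSF1 the order was TM 1 h (446 ± 82.8), DMSO (343 ± 27.6), TM 4 h (303 ± 34.3), PBS (298 ± 35.8) and arsenite (226 ± 16.8), with overlap among DMSO, TM 4 h and PBS. SRSF3 was highest in arsenite (356 ± 18.2) and TM 1 h (332 ± 9.47), whose ranges overlapped, and TM 1 h lay above DMSO (290 ± 11.2). SRSF6 had its highest mean at TM 4 h (634 ± 20.6) and its lowest at TM 1 h (528 ± 55.8), and each neighbouring pair in its order overlapped, as was the case for SRSF7, SRSF11 and SRSF5. SRSF2 was highest at TM 1 h (289 ± 42.5) and DMSO (260 ± 11.4), whose ranges overlapped. DMSO lay above PBS (231 ± 15.0), and the lower ranges of PBS, TM 4 h (216 ± 57.1) and arsenite (194 ± 17.4) each met TM 4 h, the widest. SRSF4 had 73.4 ± 14.5 at TM 4 h, and its 3 arsenite libraries (46.0 ± 1.01) lay below every DMSO library (55.1 ± 10.1). Their range overlapped that of PBS (61.4 ± 13.3), the vehicle of arsenite. TRA2A was lowest in PBS (49.8 ± 9.5), below every TM 4 h library (73.6 ± 7.44), while its ranges overlapped among the other 4 conditions. SRSF5 was low everywhere: 0 counts in PBS replicate 2 and TM 1 h replicate 1, and no library above 20.4 CPM. The 10 genes did not rise and fall as a unit. Over the 15 libraries, the correlation of a gene's log2 CPM with the mean of the other members ran from -0.37 (SRSF6) to 0.48 (TRA2A) among the 9 genes that passed the filter; these points share their vehicles and library sets.

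The T-to-C conversion share, the percent of T positions in member cluster reads read as C, is a readout that the gene counts do not hold. It was 7.15%, 7.66% and 7.0% in PBS and 8.56%, 8.01% and 8.02% in arsenite, a difference of 0.925 percentage points with all arsenite libraries above all PBS libraries. The exact permutation test gave p = 0.10, the smallest that 3 libraries against 3 allow, or 0.15 after Benjamini-Hochberg adjustment over 3 comparisons. The same shares over all clusters were 7.95% to 8.13% in PBS and 8.63% to 8.81% in arsenite, so the members moved in the direction of the whole. At TM 1 h the member share was 0.338 points below DMSO (exact p = 0.10, adjusted 0.15) and at TM 4 h 0.624 points above (exact p = 0.30). The latter was 0.288 without TM 4 h replicate 1 and 0.940 without TM 4 h replicate 3.

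For the wider splicing machinery, cluster reads were summed per gene, since the count table does not pair its identifiers with names. In arsenite against PBS, 12.1% of 2683 genes were called by this measure, 243 higher and 82 lower, with a median log2 fold change of 0.31. TRA2B was the only 1 of 7 members tested that was called (log2 0.78, SE 0.21, adjusted p = 0.044), and SRSF3 as a whole was not (log2 1.22, SE 0.59, adjusted p = 0.24). Of the other RS-domain proteins 3 of 14 were higher and 0 lower. They were led by SRRM2 (log2 2.54, SE 0.32, adjusted p = 0.0032) and SRRM1 (log2 2.11, SE 0.27, adjusted p = 0.0031), coactivators that act with SR proteins. The list median was 1.29, but some genes behind it passed the filter through arsenite alone. Examples are ACIN1 (0, 0 and 3 reads in PBS, 33, 30 and 65 in arsenite) and NKTR (0, 0 and 5, against 15, 45 and 175). This median is thus no support for a rise of the list. Of the core spliceosome 3 of 12 were higher and 0 lower. They included PRPF8, the central U5 protein (log2 2.2, SE 0.27, adjusted p = 0.0026), and SF3A2, with 0 reads in each PBS library and 21, 54 and 105 in arsenite. SF3A2 passed the filter through arsenite alone, so its call is no support for the list.

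Of the SR protein kinases and their importer, 1 of 3 tested was higher. It was CLK1, a kinase that phosphorylates SR proteins, with 0 reads in each PBS library and 14, 48 and 94 in arsenite, and it too passed the filter through arsenite alone. Of hnRNP and related proteins, which often oppose SR proteins, 3 of 17 were higher and 0 lower, led by HNRNPK (log2 1.46, SE 0.29, adjusted p = 0.018) and HNRNPU (log2 1.17, SE 0.24, adjusted p = 0.019). None of 3 genes tested of the remaining SR family and none of 3 of nonsense-mediated decay was called. Without PBS replicate 2, which has the fewest clusters, 631 of 3137 genes were called (429 higher, 202 lower), and the list counts were 6 of 15 higher for RS-domain proteins, 4 of 14 for the core spliceosome, 2 of 3 for the kinases, 6 higher and 3 lower of 18 for hnRNPs, and 0 higher and 1 lower of 3 for the remaining SR family. At TM 4 h against DMSO no gene of these 6 lists was called, where 0.213% of 4699 genes were.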

How the data were processed

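Raw read counts per gene and, per cluster, counts of reads, converted and unconverted T positions are values the authors deposited for each library. Per the submitters' processing notes, which give no order, the tools were bcl2fastq 2.20.0.422, UMI-tools 1.1.1, Trimmomatic 0.30, Bowtie 0.12.7 and featureCounts 2.0.1 with GRCh38; the cluster caller, its thresholds and the counted strand are not given in the sources used here. Each cluster table also holds a mode score, a fraction deposited by the authors and not used. Deep libraries yield more clusters, so sums of cluster reads depend on depth.

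Gene counts were tested with edgeR 4.0.16 (R 4.3.3; filterByExpr, TMM factors, quasi-likelihood test, two-sided, Benjamini-Hochberg over all genes tested, threshold 0.05); CPM use TMM factors over the 15 anti-IGF2BP3 libraries. The TM and arsenite experiments were fitted apart, with no block, although each TM and DMSO group spans library sets 142 and 141. The difference between the experiments was an interaction in 1 fit of 12 libraries. Each SE of an edgeR value is the absolute log2 fold change over the square root of the F statistic. It is unsteady where the log2 fold change is near 0. For the SRSF6 region at 5147 to 5491 nt in arsenite against PBS it was 0.83 at log2 -0.18. With median-ratio factors it was 1.34 at log2 0.0016. Clusters were assigned to a member by midpoint and strand (RefSeq positions; 539 of 539 clusters in RefSeq promoter windows carried the same letters), then merged over libraries where they overlapped. Region and per-gene cluster fits were added after the data had been seen. DESeq2 1.42.0 and other scalings, filters, blocks and left-out libraries were alternatives. The tests were checked on simulated data. Gene-count tests recovered 65.5% to 71.5% of 2-fold changes in the TM comparisons. They recovered 74.5% in arsenite against PBS and 53.5% for the difference between arsenite and TM 4 h. The region test recovered 14.5% of 2-fold and 75.5% of 8-fold changes in arsenite against PBS. Simulated region counts left out the calling of clusters in each library, so the region rates may not hold for the data. Same-numbered libraries did not deviate together (12 correlations, -0.04 to 0.01). Counting noise is a large part of these deviations, so the correlations do not decide whether the numbers pair the samples. All 15 replicate pairs differed beyond counting noise (chi-square per gene 1.16 to 1.69, chi-square test over genes).

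The members and lists were chosen with earlier results of these data known. All members are given, and so are all genes looked up for the treatments. From the other lists the 2 largest called rises and falls are named, and ACIN1 and NKTR for the filter. The rule for genes most like the members needs symbols, which the count table does not pair with its identifiers. Run on identifiers over 15 libraries and 3331 genes, the rule gave ENSG00000276043 (Pearson r 0.81 with the members' mean profile) and ENSG00000184009 (r 0.79) as the highest, given here without names. They were picked as the highest of 3331 correlations, and no reference for such a maximum was run, so no likeness is concluded. Shares by annotation class were not run, as exon annotation was not used here.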

Additional observations from a re-analysis of the deposited data

Results flagged for a closer look

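Differences between the responses to arsenite and to TM 4 h drew attention in 3 places, each by a test of the difference itself. TRA2B gene counts rose more in arsenite than at TM 4 h, by 0.50 on the log2 scale, and all 3 arsenite libraries stood above all TM libraries. SRSF3 gene counts differed by 0.61, with arsenite higher than PBS and TM 4 h not different from DMSO by the test. The SRSF3 upstream region, 5453 to 5905 nt after the gene start, differed by 2.87 in cluster reads. Its edgeR adjusted p of 0.014 rose to 0.083 without DMSO replicate 3 and to 0.29 with no filter on low counts. That test reuses PBS and arsenite reads seen before the fit was added, so its p-value adds no support. The arsenite and TM libraries were made in different library sets, and a part of the library set in these differences cannot be told apart from the treatment.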

How the results depend on the processing

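Among results for single member genes, 651 values under alternatives kept direction and side of the threshold, counting 29 sign changes of uncalled values that moved by less than 1 SE; 22 lost a call and 7 gained one. Signs turned for SRSF11 in TM 1 h against DMSO with replicates 1 and 2 alone (-0.020), for SRSF2 in the arsenite minus TM 4 h change without TM 4 h replicate 3 (0.19, against -0.19 without TM 4 h replicate 1), and against IgG for SRSF11, SRSF7, TRA2B, SRSF3, SRSF1 and SRSF2 with library totals (-0.094, -0.43, -0.29, -0.16, -0.45, -0.38) and with DESeq2 (-0.10, -0.44, -0.29, -0.16, -0.46, -0.39); the cause was not tested.

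Counts of genes called, over all genes, fell with DESeq2: 46 to 6 (TM 1 h against DMSO), 426 to 151 (TM 4 h against DMSO), 967 to 502 (TM 4 h against TM 1 h), 2310 to 1233 (arsenite against PBS) and 1427 to 854 (arsenite minus TM 4 h change). With replicates 1 and 2 alone, which come from 1 library set and are also fewer samples, the first 3 were 16, 129 and 488. With the library set as a block these 3 counts were 42, 394 and 925. Leaving out 1 replicate gave 13 to 41, 178 to 431, 523 to 859, 1714 to 2392 and 1052 to 1377. Against IgG, 703 became 138 with library totals, 261 with DESeq2, and 379, 423 and 443 without the arsenite, DMSO or TM 4 h libraries.

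Members called in TM 4 h against TM 1 h numbered 3, and 1 with no filter or with DESeq2, and 1 to 4 with 1 replicate left out; in TM 4 h against DMSO 0 to 1, in arsenite against PBS 2 to 4. Against IgG 1 member, SRSF11, was called without the TM 4 h libraries. The replicate block gave 43, 371, 902, 2111 and 1320 genes in the 5 comparisons and 103 regions in place of 553 in arsenite against PBS; among members it ended the SRSF3 call in TM 4 h against TM 1 h (adjusted p = 0.052) and changed no other gene-count call.

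For the SRSF3 upstream region, leaving out 1 replicate gave log2 3.67 to 4.36 in arsenite and 2.55 to 3.30 for the difference from TM 4 h, which without a filter was 2.72 (adjusted p = 0.29). For the TRA2B main region these were 0.84 to 1.11 and 0.71 to 1.03; the difference was called with median-ratio factors (1.03) and DESeq2 (0.99), and without PBS replicate 3 (1.03). Regions called in arsenite were 1114 with DESeq2 and 10 to 1145 with 1 replicate left out; for the difference, 147 became 235 with library totals, 271 with median-ratio factors, 957 with DESeq2 and 72 to 274 with 1 left out. Restricted to clusters of at least 10 reads, member clusters fell from 914 to 439, and the upstream share of SRSF3 was 0% in PBS, 72.3% in arsenite, 8.27% in DMSO and 40.1% at TM 4 h. Member conversion shares kept their direction, from 0.288 to 0.940 points in TM 4 h against DMSO.

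Depth limits what can be said of weakly covered members (SRSF4, SRSF5, TRA2A): PBS replicate 2 held 7 member clusters, against 116 in the deepest library, and IgG libraries were too shallow for a gene-level background.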
